A study of Sus scrofa with 8 samples.

Results

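The genes described are the translation initiation factors (eIFs) and elongation factors (eEFs) on an Affymetrix porcine array, followed in the livers of 2 pig breeds. Members were all probe sets, the groups of short probes that stand for a transcript, whose array annotation lists a single gene symbol beginning with EIF or EEF and a digit. The Y-linked EIF1AY, the eIF2 kinases and the control probe sets were left out. This gave 62 probe sets of 40 genes, out of 23999 probe sets that are not controls. They comprise 47 probe sets of 33 initiation factor genes, 6 probe sets of 4 elongation factor genes, and 9 probe sets of 3 genes that carry such a symbol without being a factor (EIF4EBP2, EEF1E1 and EEF1AKMT1), called regulators here. The samples were livers of 4 Korean native pigs (KNP), an indigenous breed, at 7 months of age and of 4 Yorkshire pigs (YS), a commercial breed, at 6 months, with 1 array for each animal. According to the labels all animals were reared alike, and the piece of liver used for RNA was the end of its largest lobe. Breed and age cannot be told apart, and neither can any batch that followed breed. The comparison asks which transcripts differ between the livers of these breeds.

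Initiation factors bring the initiator tRNA, the small ribosomal subunit and the capped end of a message together and find the start codon. Elongation factors then deliver each aminoacyl-tRNA and move the ribosome along. The liver makes most plasma proteins and so translates heavily. Initiation is its main point of control, through phosphorylation of eIF2 and through the 4E-binding proteins under the kinase mTOR, whereas several elongation factors are among the most abundant messages of any cell. Levels on an array are intensities in arbitrary units, which can be compared between animals for 1 probe set but not between probe sets. In whole liver, fewer cells of a type and less RNA per cell cannot be told apart.

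Array medians ran from 152 to 179, and KNP replicate 2 had the lowest median correlation with the other arrays (0.913, against 0.920 to 0.941 for the other 7). The highest intensity was 50730 to 60066 on KNP arrays and 83646 to 95919 on YS arrays, without overlap. The ratio of the 3′ to the 5′ actin control, a measure of RNA length, was 2.68 to 6.45 in KNP and 8.39 to 11.8 in YS, without overlap either (exact permutation p = 0.0286, two-sided, the smallest that 35 splits allow). The same ratio of the GAPDH control overlapped between the breeds, at 2.30 to 3.77 in KNP and 3.07 to 4.05 in YS (exact permutation p = 0.314). The part of these ratios in the results below was not tested. All 10 hepatocyte markers in the list were measured, with a summed intensity of 344599 to 401507 in KNP and 547597 to 575205 in YS. Of these, 7 were called lower in KNP and none higher, against 0.611% lower and 0.424% higher of all probe sets tested. Their median log2 difference of −0.60 became −0.0057 after quantile normalization, which gives every array one distribution. These markers were bright, with breed means of 10794 to 88262. At a mean log2 intensity of 14 or more, all probe sets tested had a median difference of −0.46, with 95.7% below 0. The part of brightness in the marker values was not tested. Of the macrophage markers, 4 of 8 were tested and all 4 had the higher mean in KNP, with none called by limma; their median was 0.52 as deposited and 0.50 after quantile normalization, and their summed intensity 13422 to 18720 in KNP and 7793 to 16714 in YS. The part of such cells in the results below was not tested. The muscle and B cell markers that the array holds did not pass the filter on low values.

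Translation factor transcripts differed little between the breeds. The filter on low values kept 59 of the 62 probe sets and at least 1 probe set of each of the 40 genes. Of these 59, 1 rose in KNP, none fell and 58 did not pass (limma, Benjamini-Hochberg adjusted p under 0.05 over all 14399 probe sets tested). This is 1.69% of the members, and 1.03% of all probe sets tested were called, 0.424% higher and 0.611% lower, so the share of members called lay near the background. At an unadjusted p under 0.05 there were 10 of 59 members, 5 higher and 5 lower in KNP, against 15.1% of all probe sets (7.07% higher and 8.06% lower). The values of the breeds did not overlap in 6 members, 3 higher and 3 lower in KNP, against 9.68% of all probe sets (4.01% higher and 5.67% lower). When each gene was represented by its probe set of highest mean, none of the 40 genes was called by limma. Of these 40, 5 had an unadjusted p under 0.05, all of them lower in KNP. Over all 5423 genes represented in this way, 1.36% were called. Of these 5423, 886 had an unadjusted p under 0.05 by limma, 404 higher and 482 lower in KNP.

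The intervals around these differences were narrow for the brightest probe set of each gene and wider for some others. For the 40 probe sets of highest mean the median standard error (SE) was 0.17 on the log2 scale. The 95% interval of the KNP minus YS difference lay within a 2-fold change for all 40 of these probe sets and within a 1.5-fold change for 28. Among all 59 tested member probe sets it lay within a 2-fold change for 52 and within a 1.5-fold change for 30. The median spread between animals of a breed was 0.21 log2 units for these genes, against 0.29 over all 5423 genes represented in the same way. Most members lay in a range of brightness where spread is small, since the median spread of all probe sets was 0.39 at a mean log2 intensity of 7 to 8 and 0.26 at 10 to 12.

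**Figure D1:**
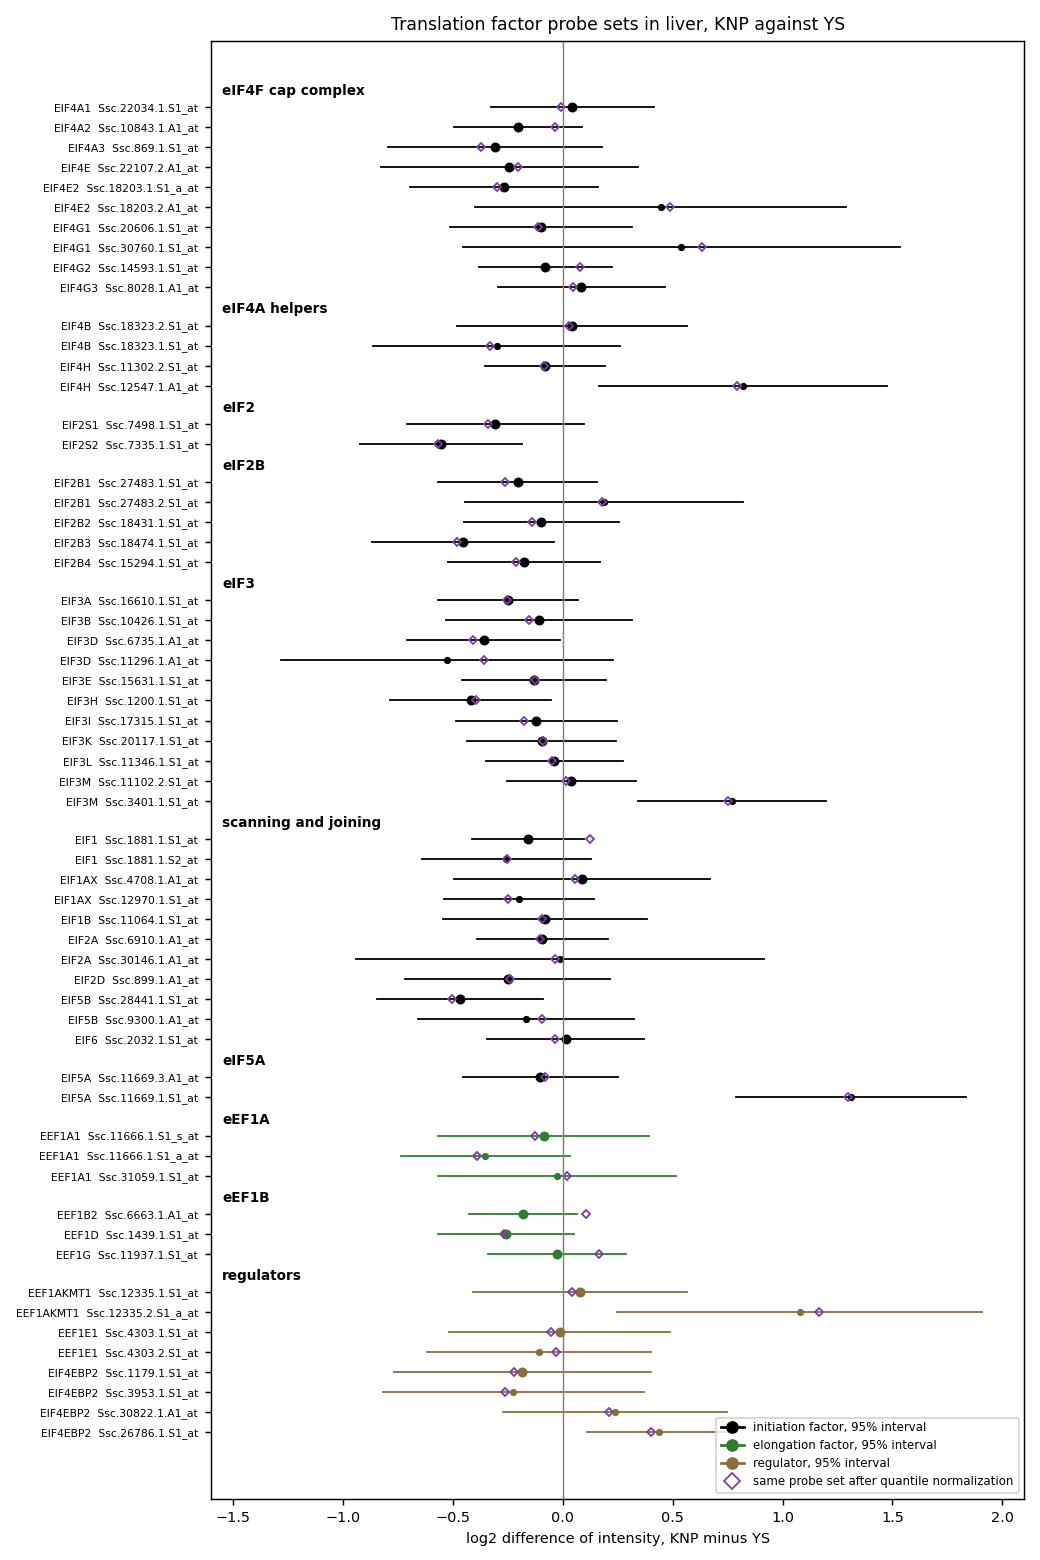
Log2 difference KNP minus YS (x axis) for the 59 tested probe sets, grouped by role; large dots are the probe set of highest mean of each gene, small dots its other probe sets, lines are 95% intervals from limma, and diamonds are the same probe sets after quantile normalization. Most points lie slightly left of 0, and the rightmost is the dimmer EIF5A probe set at 1.31.

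The single member that rose was a probe set of EIF5A. This factor, the only protein known to carry the modified amino acid hypusine, is named as an initiation factor but helps the ribosome through elongation and termination. Probe set Ssc.11669.1.S1_at read 742, 846, 678 and 628 in the 4 KNP animals and 292, 389, 322 and 167 in the 4 YS animals. Every KNP value was above every YS value, by a factor of 2.48 on average (724 ± 94.0 against 292 ± 93.0, SD, n = 4 per breed; log2 difference 1.31, SE 0.24, limma adjusted p = 0.0362). The other EIF5A probe set, Ssc.11669.3.A1_at, read 3483, 4954, 4415 and 4377 in KNP and 5214, 3846, 5189 and 4246 in YS. There the breeds overlapped, with a log2 difference of −0.10 (SE 0.16, 95% interval −0.45 to 0.25). The call therefore belongs to 1 of 2 probe sets of the gene and not to the gene as a whole. Its size held when any 1 animal was left out (1.08 to 1.46), but the call did not, since limma adjusted p then lay between 0.0512 and 0.108. It was also lost after quantile normalization (1.3, limma adjusted p = 0.0755), cyclic loess normalization (1.28, 0.0754) and with replicate number as a block (0.0812).

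Differences of the same kind that did not pass the test were seen in the dimmer probe sets of EIF3M and EIF4H, 2 other initiation factors, where the brighter probe set lay near 0. EIF3M is a subunit of eIF3, the large complex that holds the small ribosomal subunit. Its probe set Ssc.3401.1.S1_at read 506, 522, 624 and 859 in KNP and 384, 356, 309 and 368 in YS. The breeds did not overlap and the difference was 0.77 (SE 0.19, limma adjusted p = 0.0969), while the brighter Ssc.11102.2.S1_at showed 0.039 (SE 0.13). EIF4H helps the helicase eIF4A to unwind messages. Its dimmer probe set Ssc.12547.1.A1_at read 696, 494, 993 and 1255 in KNP and 448, 363, 367 and 697 in YS, a difference of 0.82 (SE 0.30, limma adjusted p = 0.229) with overlap through YS replicate 4. The brighter Ssc.11302.2.S1_at lay between 3659 and 4484 on all 8 arrays, with a difference of −0.081. Over the 16 genes with several probe sets there were 19 pairs of the brightest with another tested probe set. In 12 of these pairs (63.2%) the dimmer one had the more positive difference, and in 9 (47.4%) the signs were opposite. Over all 1766 such pairs on the array the shares were 58.5% and 40.8%. The median difference of the dimmer minus the brighter probe set was 0.30 over the member pairs and 0.082 over all pairs.

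**Figure D2:**
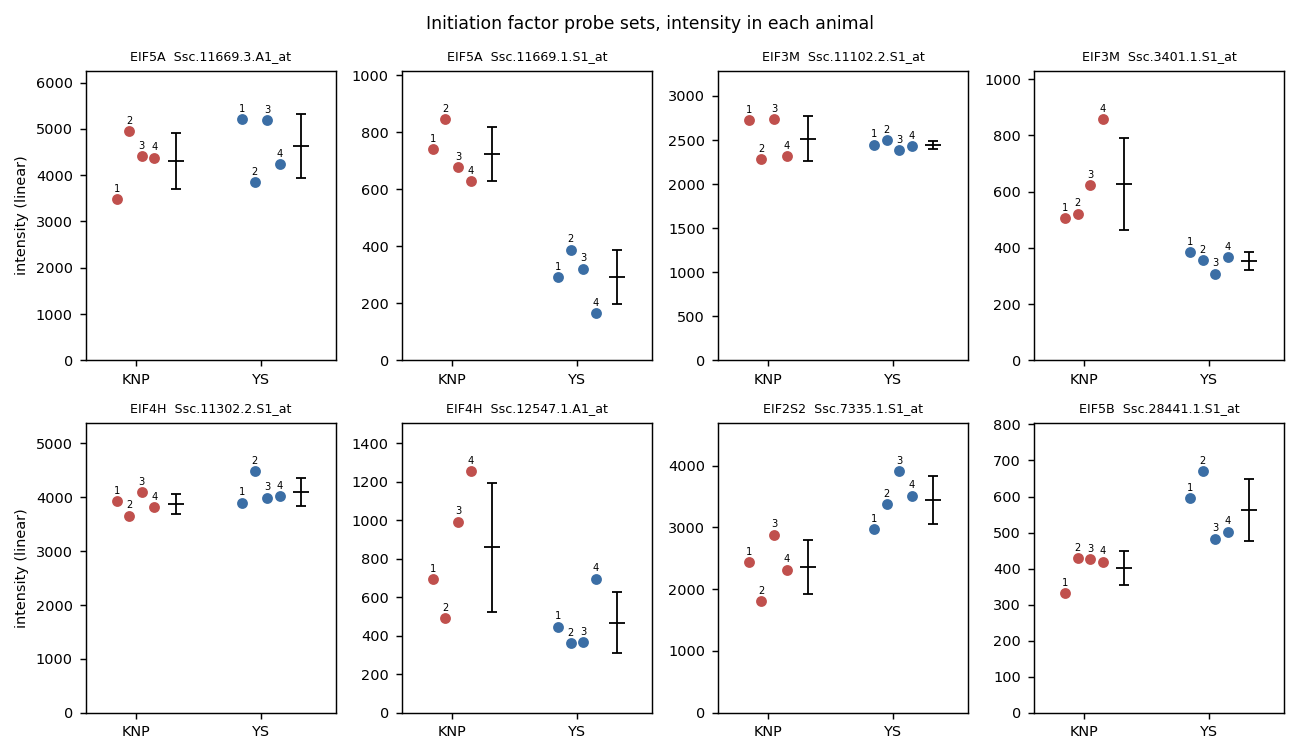
Intensity on a linear scale (y axis) in each animal for both probe sets of EIF5A, EIF3M and EIF4H and for single probe sets of EIF2S2 and EIF5B; dots are animals numbered by replicate, bars are mean ± SD of 4. The dimmer EIF5A and EIF3M probe sets separate the breeds upward in KNP, EIF2S2 and EIF5B separate them downward, and the brighter EIF5A, EIF3M and EIF4H probe sets overlap.

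The members of the eIF2 complex, which carries the initiator tRNA, and of its exchange factor eIF2B leaned the other way. So did most initiation factor genes, with 27 of 33 lower in KNP by their brightest probe set. Only 2 genes of eIF2 itself were members. EIF2S2, the beta subunit of eIF2, read 2435, 1810, 2883 and 2316 in KNP and 2971, 3373, 3908 and 3515 in YS. All KNP values were below all YS values, yet the difference of −0.55 (SE 0.17) had a limma adjusted p of 0.153, and no alternative brought it under the threshold (0.116 to 0.322). EIF2S1, the alpha subunit and the target of the stress kinases, read 2111, 1562, 2543 and 1638 in KNP and 2141, 2374, 2811 and 2260 in YS. The breeds overlapped, and its difference was −0.31 (SE 0.18, limma adjusted p = 0.470). All 4 eIF2B genes among the members had a lower mean in KNP by their brightest probe set. EIF2B3, the gamma subunit, showed −0.45 (SE 0.19, limma adjusted p = 0.289; 417 ± 48.4 against 583 ± 118, SD, n = 4 per breed). EIF2B1, EIF2B4 and EIF2B2 showed −0.20, −0.18 and −0.098, and a dimmer probe set of EIF2B1 showed 0.19. None of the 6 genes of eIF2 and eIF2B passed the test, and all 6 kept their negative sign after quantile normalization, cyclic loess normalization and median centring.

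Of 9 genes of eIF3, 8 had a lower mean in KNP and none passed. EIF3H showed −0.42 (SE 0.17, limma adjusted p = 0.269). It read 5029, 4882, 3554 and 5954 in KNP and 6610, 5656, 6865 and 6486 in YS, so that KNP replicate 4 alone lay within the YS range. EIF3D, the subunit that can itself bind the cap, showed −0.36 (SE 0.16, limma adjusted p = 0.311) with 1164 ± 165 against 1494 ± 156 (SD, n = 4 per breed). EIF3A, the largest scaffold of the complex, showed −0.25, EIF3E −0.13, EIF3I −0.12, EIF3B −0.11, EIF3K −0.096 and EIF3L −0.038. EIF3L turned to 0.038 after median centring. The median of the 9 genes was −0.12, and −0.15 after quantile normalization.

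Among factors of scanning, start codon choice and subunit joining, EIF5B was the member of smallest p. It encodes the GTPase that joins the large ribosomal subunit at the start codon. Its brightest probe set read 332, 429, 426 and 419 in KNP and 596, 670, 484 and 503 in YS. The breeds did not overlap, and the difference was −0.47 (SE 0.17, limma adjusted p = 0.237); a second probe set showed −0.17 with overlap. EIF1, which guards start codon fidelity and had the brightest probe set of this group, read 15014 ± 1072 in KNP and 16749 ± 1142 in YS (SD, n = 4 per breed). Its difference was −0.16 (SE 0.11, limma adjusted p = 0.556) and turned to 0.12 after quantile and 0.097 after cyclic loess normalization. The dimmer EIF1 probe set did not turn, with −0.26 as deposited, −0.25 after quantile and −0.20 after cyclic loess normalization. EIF1B, a close relative of EIF1, showed −0.080. With 2 probe sets each, EIF1AX showed 0.088 and −0.20, and EIF2A −0.093 and −0.013. EIF2D showed −0.25 and EIF6, which keeps the large subunit from joining too early, 0.015. The sign of EIF6 turned to −0.035 after quantile normalization.

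In the cap-binding eIF4F complex and its close relatives no probe set passed, and none had an unadjusted p under 0.05 (limma). The smallest p was that of EIF4A2, a helicase that unwinds the start of messages. EIF4A2 had 11100 ± 1405 in KNP and 12728 ± 994 in YS (SD, n = 4 per breed), a difference of −0.20 (SE 0.13, limma adjusted p = 0.507) that shrank to −0.034 after quantile normalization and turned to 0.013 after cyclic loess. Its paralogue EIF4A1 showed 0.044, and −0.0073 after quantile normalization. EIF4A3, a related helicase that belongs to the exon junction complex, showed −0.31 (SE 0.22). EIF4E, the cap-binding protein, was dim, at 216 ± 66.4 against 257 ± 63.6, with a difference of −0.24 whose 95% interval ran from −0.83 to 0.34. The scaffold EIF4G1 showed −0.099 (95% interval −0.51 to 0.31) with its brighter probe set and 0.54 (−0.46 to 1.53) with its dimmer one. EIF4G2, a scaffold that lacks the eIF4E site, showed −0.079 and turned to 0.079 after quantile normalization, and EIF4G3 showed 0.085. In EIF4E2, a cap-binding relative that represses translation, the probe sets showed −0.27 and 0.44, and its dimmest was left out by the filter. EIF4B, which stimulates eIF4A, showed 0.043 and −0.30 with its 2 probe sets.

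The regulators showed no call either. EIF4EBP2 encodes a 4E-binding protein, which sequesters eIF4E until mTOR phosphorylates it, and had 4 tested probe sets with differences of −0.18, −0.23, 0.24 and 0.44. The last of these, Ssc.26786.1.S1_at, read 910, 822, 821 and 966 in KNP and 728, 669, 603 and 581 in YS. It did not overlap between the breeds, with an SE of 0.15 and a limma adjusted p of 0.20. EEF1AKMT1, a lysine methyltransferase of eEF1A, showed 0.078 with its brighter probe set and 1.08 with its dimmer one (SE 0.38, limma adjusted p = 0.214). That dimmer probe set read 175 to 265 in KNP and 38.5 to 212 in YS, where YS replicate 1 lay inside the KNP range. EEF1E1, a part of the tRNA synthetase complex, showed −0.014 and −0.11.

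The elongation factor genes measured were EEF1A1, which brings aminoacyl-tRNA to the ribosome, and EEF1B2, EEF1D and EEF1G, the parts of the eEF1B complex that recharges it with GTP. All 6 of their probe sets had a lower mean in KNP as deposited, but 3 of 6 after quantile normalization, and none passed the test or had an unadjusted p under 0.05 (limma). EEF1B2, whose probe set was the brightest of all members, read 16703, 17671, 14544 and 16979 in KNP and 18257, 17971, 19352 and 18945 in YS. The breeds did not overlap, but the difference was small, at −0.18 (SE 0.11, limma adjusted p = 0.486), and it turned to 0.11 after quantile normalization. EEF1G read 14362, 11790, 9344 and 11841 in KNP and 11870, 11606, 12830 and 11384 in YS. Its difference of −0.026 (SE 0.14) turned to 0.17 after quantile normalization. EEF1D had 3194 ± 248 in KNP and 3831 ± 452 in YS (SD, n = 4 per breed), with a difference of −0.26 (SE 0.14, limma adjusted p = 0.421) that stayed at −0.27 after quantile normalization.

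EEF1A1 had 3 member probe sets. They showed −0.086 (SE 0.22), −0.35 (SE 0.18, limma adjusted p = 0.374) and −0.026 (SE 0.25, turning to 0.021 after quantile normalization), and all overlapped between the breeds. The array also carries control probe sets for elongation factor 1-alpha, which the selection of members leaves out. The control for the 3′ part of the message read 33893 to 39912 in KNP and 52179 to 58440 in YS, a log2 difference of −0.61 without overlap (exact permutation p = 0.0286, two-sided). The control for the middle part, which the annotation names EEF1A1, read 33723 to 39937 against 47975 to 58757 (−0.51, exact permutation p = 0.0286). The control for the 5′ part overlapped, at 23934 to 33390 against 27506 to 42750 (−0.21, exact permutation p = 0.257). The 3′ to 5′ ratio of these controls was 1.23 ± 0.226 in KNP and 1.63 ± 0.246 in YS (SD, n = 4 per breed; exact permutation p = 0.0571). The controls and the member probe sets of this gene thus gave different sizes for the difference between the breeds. Among the controls the size went with position along the message. They also differed from the members in brightness. At a mean log2 intensity of 14 or more, where the controls lie, all tested probe sets had a median difference of −0.46, with 95.7% below 0. The 3 member probe sets lay at 7.83 to 10.6, in classes with medians of −0.032 to 0.037. The controls were not quantile normalized, and the part of brightness in these sizes was not tested.

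**Figure D3:**
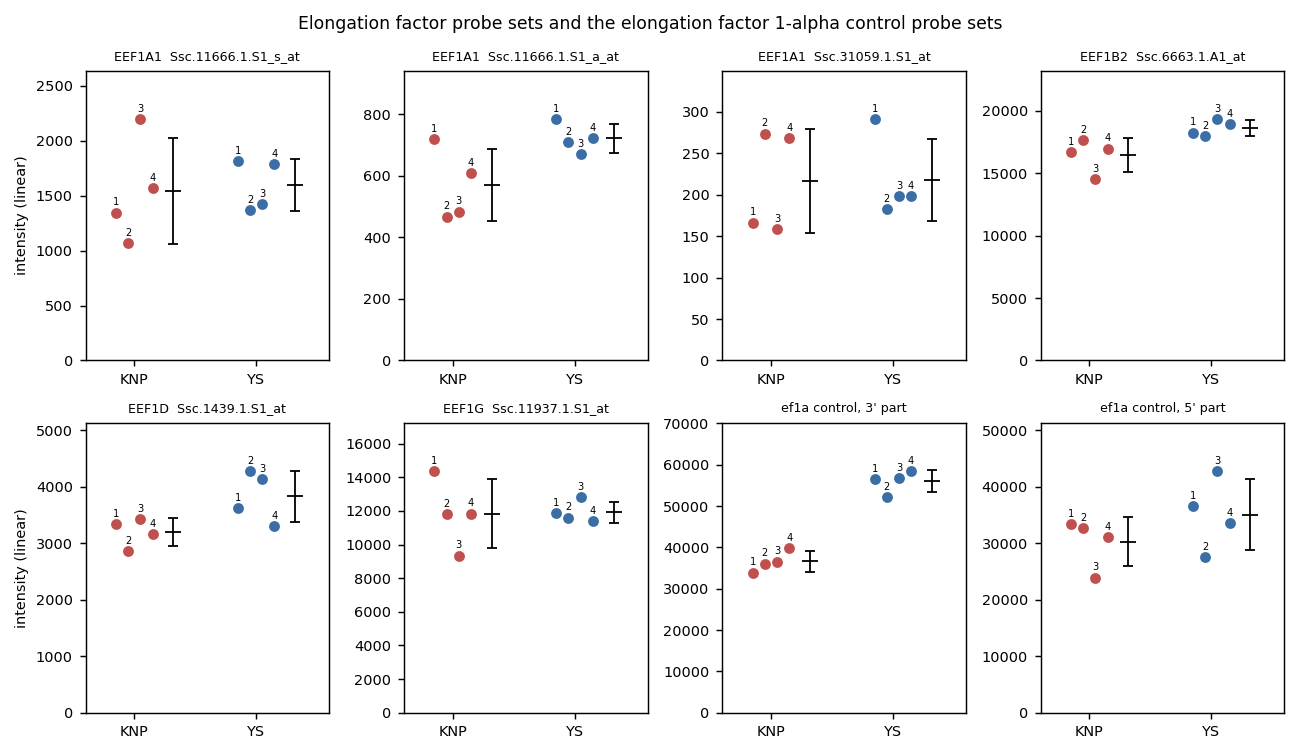
Intensity on a linear scale (y axis) in each animal for the 6 elongation factor probe sets and for the 3′ and 5′ controls of elongation factor 1-alpha; dots are animals numbered by replicate, bars are mean ± SD of 4. The 3′ control separates the breeds, with KNP at 33893 to 39912, and EEF1B2 separates them narrowly, while the other panels overlap.

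Initiation and elongation factors were then set side by side. On the deposited scale their medians were alike, −0.12 over 33 initiation genes and −0.13 over 4 elongation genes, against −0.016 over all 5423 genes. The difference was below 0 in 27 of 33 initiation genes (81.8%) and in 4 of 4 elongation genes, against 51.8% of all genes and 51.1% of all probe sets. After quantile normalization the initiation median stayed at −0.13, with 27 of 33 genes (81.8%) below 0, against 50.9% of all genes and 49.6% of all probe sets. The elongation median went to −0.011, with 2 of 4 genes below 0. Cyclic loess gave −0.087 and −0.018, and median centring gave −0.044 and −0.057 where the median of all genes was 0.060. The initiation median thus lay below that of all genes on all 4 scales. The elongation median lay close to that of all genes after quantile (−0.0072 for all genes) and cyclic loess normalization (0.0013 for all genes). With 4 elongation genes this contrast is a description and was not tested.

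Brightness moved with this contrast. Where the mean log2 intensity was 14 or more, all tested probe sets had a median difference of −0.46, and between 13 and 14 it was −0.22, whereas between 8 and 12 it lay from −0.0030 to 0.037. After quantile normalization these medians were −0.034 for the brightest class and −0.060 for the next. EEF1B2 belonged to the former class, and EEF1G, EIF4A2, EIF4G2 and EIF1 by its brighter probe set to the latter. Each of these 5 had a less negative difference on the deposited scale than the median of its class, and EEF1B2, EEF1G, EIF1 and EIF4G2 turned positive after quantile normalization. Cytosolic ribosomal proteins, the other large group of bright messages of translation, had a median of −0.36 over 54 genes, with 10 lower calls and no overlap in 33 genes. Over all 5423 genes 47 were called lower and 595 did not overlap. After quantile normalization their median was −0.066 and none was called by limma. On that scale 5 of 54 had an unadjusted p under 0.05 by limma, against 783 of all 5423 genes.

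**Figure D4:**
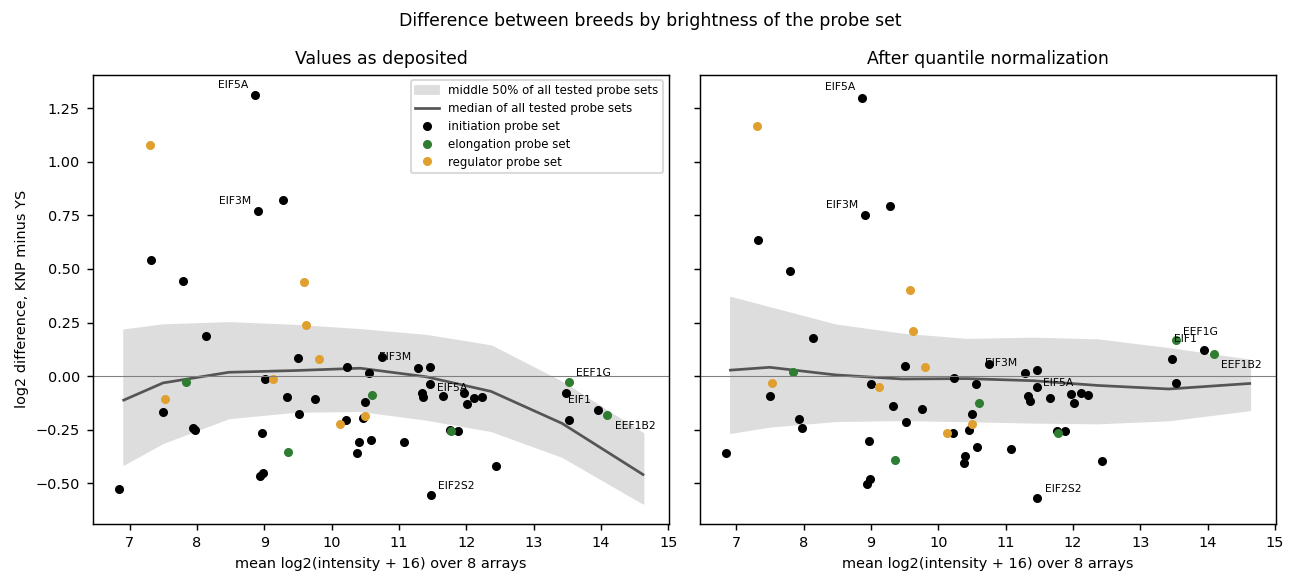
Log2 difference KNP minus YS (y axis) against mean log2(intensity + 16) over the 8 arrays (x axis) for the 59 tested member probe sets, as deposited (left) and after quantile normalization (right); the line is the median and the grey band the middle 50% of all 14399 probe sets tested. On the left the line drops to −0.46 for the brightest class, and the bright members EEF1B2, EEF1G and EIF1 lie above it.

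Animal by animal, the median initiation factor gene lay between 0.072 and 0.12 log2 units above its own 8-array mean in the 4 YS animals. In the KNP animals it lay at −0.081, −0.12, 0.0072 and −0.12. The breeds did not overlap, and KNP replicate 3 was nearest to YS. The median elongation factor gene lay at −0.065, −0.14, −0.15 and −0.019 in KNP and at 0.059, 0.0072, 0.13 and 0.031 in YS. KNP replicates 2 and 3 were lowest there and nearly equal (−0.143 and −0.146). After quantile normalization the elongation medians of the breeds overlapped, at −0.11 to 0.038 in KNP and −0.12 to 0.020 in YS, and the initiation medians did not (−0.14 to −0.0075 and 0.035 to 0.14). On that scale the elongation median of KNP replicate 3 was −0.051, above KNP replicate 2 (−0.11) and YS replicate 2 (−0.12).

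**Figure D5:**
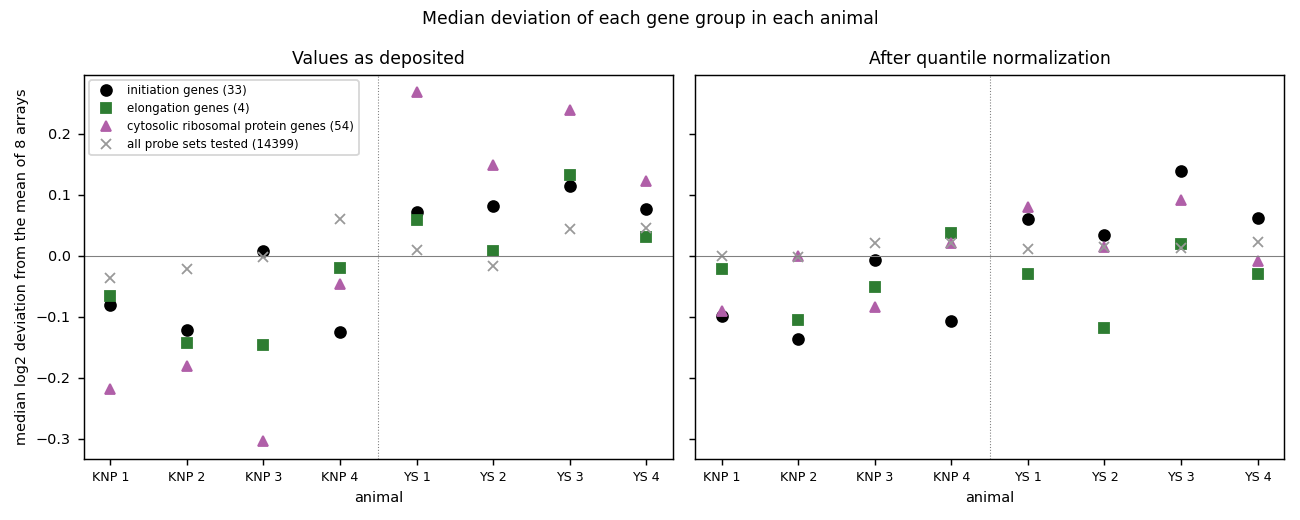
Median log2 deviation from the 8-array mean (y axis) of initiation factor genes, elongation factor genes, cytosolic ribosomal protein genes and all tested probe sets in each animal (x axis), as deposited (left) and after quantile normalization (right). Initiation medians of the YS animals lie above those of all KNP animals in both panels, and elongation medians overlap in the right one.

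KNP replicate 3 stood apart in a further way. Messages that begin with a run of pyrimidines (TOP messages), which mTOR controls as a group, include those of many elongation factors and of some initiation factors. Of 7 members on a textbook list of such messages (EEF1A1, EEF1B2, EEF1D, EEF1G, EIF3E, EIF3H and EIF4B), 5 had their lowest value of all 8 animals in KNP replicate 3, against 4 of the other 33 genes. EIF4B read 3018, 2968, 1725 and 4240 in KNP and 2367 to 3054 in YS. EIF3E, another eIF3 subunit, read 4270, 3695, 3251 and 4653 in KNP and 4089 to 4821 in YS. The median of the 7 genes was −0.34 in KNP replicate 3 and between −0.15 and 0.12 in the other 7 animals. The 3′ to 5′ ratios of the actin control (6.45) and of the elongation factor 1-alpha control (1.53) were also the highest among KNP animals in KNP replicate 3. KNP replicate 4 was close for actin (6.37). It had the highest GAPDH ratio of the KNP animals (3.77, against 3.51 in KNP replicate 3), and its median over the 7 genes was 0.028. The part of these ratios in this was not tested. The median of ribosomal protein genes, also TOP messages, was lowest in this animal too, at −0.30 on the deposited scale. After quantile normalization KNP replicate 3 remained lowest over the 7 genes (−0.22, with KNP replicate 2 at −0.16), but for ribosomal proteins it lay at −0.084 and KNP replicate 1 at −0.091. EEF1A1 and EEF1D did not follow, since KNP replicate 2 was their lowest animal. The same held for PABPC1, which is on the same list but not a member. It read 10666 in KNP replicate 2 and 10786 in KNP replicate 3. The brightest EEF1A1 probe set read 2198 in KNP replicate 3, the highest of all 8 animals, while the dimmest read 158 there, the lowest. EEF1D read 3422 in KNP replicate 3, the highest of the KNP animals.

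Other genes of translation were read from a list of kinases, partners, mTOR components, mitochondrial factors and tRNA synthetases. Of 36 tested genes none was called higher or lower by limma, with 7 at an unadjusted p under 0.05, 1 of them higher and 6 lower. Over all 5423 genes 1.36% were called and 886 had an unadjusted p under 0.05 by limma, 404 higher and 482 lower. The median was −0.047. Of 15 genes of tRNA synthetases and their scaffold proteins, which charge tRNA with amino acids, 12 had a lower mean in KNP, with a median of −0.13 as deposited and −0.16 after quantile normalization. GARS, the glycine enzyme, had 1538 ± 268 in KNP and 2199 ± 366 in YS (SD, n = 4 per breed), with a difference of −0.51 (SE 0.18, limma adjusted p = 0.221). MARS, the methionine enzyme, showed −0.57 (SE 0.21, limma adjusted p = 0.244) and EPRS, which charges glutamate and proline, −0.43 (SE 0.19). The 21 remaining genes had a median of 0.039 with 9 below 0, and of −0.012 with 11 below 0 after quantile normalization. TSC2, a brake on mTOR, showed 0.46 (SE 0.20, limma adjusted p = 0.308), and PAIP1, which binds the poly(A)-binding protein and promotes initiation, 0.32 (SE 0.15, limma adjusted p = 0.337). TSFM, a mitochondrial elongation factor, showed −0.41 (SE 0.16, limma adjusted p = 0.260), and VARS, the valine enzyme, −0.37 (SE 0.17, limma adjusted p = 0.329). RPS6, the ribosomal protein that the mTOR pathway phosphorylates, showed −0.38 (SE 0.11, limma adjusted p = 0.130), and −0.045 after quantile normalization. The breeds did not overlap in 4 of the 36 genes, with KNP above YS in PAIP1 and below YS in RPS6, TSFM and VARS. They did not overlap in 595 of all 5423 genes either, so the share in this list lay near the background.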

How the data were processed

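The authors deposited 1 intensity per probe set and array on a linear scale; GCOS 1.3 is named per the submitters' processing notes, and the signal algorithm is not given in the sources used here. Values had been scaled array by array before deposit, since on each array those within percentiles 2 and 98 averaged 499.8. Of 24123 probe sets, 124 controls and the lower 40% by mean log2(intensity + 16) were left out, which left 14399. limma 3.58.1 (R 4.3.3) was fitted on breed alone with an intensity trend, and p-values were adjusted by Benjamini-Hochberg over all probe sets tested; differences are on the log2(intensity + 16) scale, which understates those of dim probe sets. The test was checked on simulated data. A gene was represented by its tested probe set of highest mean.

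The members and lists were chosen with earlier results of these data known. Named were all called members, the gene of highest mean and of smallest p per role, members whose probe sets differ in sign with one at an unadjusted p under 0.05, and 14 fixed genes, of which EEF1A2, EEF2, EIF4EBP1 and EIF5A2 are not analysed here; other genes were named after their values were seen. Of the 62 members, 61 matched a RefSeq gene of Sscrofa11.1 by gene ID, under the same symbol; 6 probe sets with a factor among several symbols were not used. Same-numbered animals of the breeds are different animals, and the correlations of their deviations were −0.020 to 0.051, so they were not paired. The labels call the replicates biological. The 8 arrays limit the precision. Alternatives were other pseudocounts (1 and 64), 3 normalizations, 2 other filters, no trend, array weights, a replicate block, a threshold of 0.01, gene means and each animal left out.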

Additional observations from a re-analysis of the deposited data

Results flagged for a closer look

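In 4 of the 124 sets of 4 animals checked (62 probe sets in each breed; 3.23%), 1 animal lay far from the other 3 on the log2 scale, where about 1 in 20 such sets would be marked by chance. EIF4A3 read 1903 in KNP replicate 3 and 989 to 1076 in the other KNP animals. EIF4E2 read 633 in KNP replicate 2 with its brightest probe set, against 388 to 398, and 29.9 in YS replicate 3 with its dimmest, against 97.8 to 115. EIF5B read 332 in KNP replicate 1 and 419 to 429 in the other KNP animals, so its lack of overlap with YS does not rest on that animal.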

How the results depend on the processing

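The single called member probe set, of EIF5A, stayed called with a pseudocount of 1 or 64, median centring, the lower 60% left out and array weights. The count of members called was 0 with quantile normalization, cyclic loess normalization, no filter, no intensity trend, the replicate block and a threshold of 0.01, and ranged from 0 to 0 with each animal left out; 6 to 11 members then had an unadjusted p under 0.05 by limma. Over all probe sets the 149 calls became 14 with quantile normalization, 14 with cyclic loess, 35 with no filter, 13 with no trend, 8 with the replicate block, 5 at 0.01, 95 with median centring, and 8 to 119 with 1 animal left out; the cause was not tested. The replicate block, whose numbers do not pair the animals, changed no other call of a member. The median of initiation factor genes was −0.044 with median centring and −0.19 to −0.12 with 1 animal left out. The median of elongation factor genes was −0.011 with quantile normalization, −0.057 with median centring, −0.018 with cyclic loess and −0.20 to −0.11 with 1 animal left out. Of 59 member probe sets, 37 kept 1 sign under all 18 alternatives and 22 did not, 7 of them with quantile normalization. Differences of dim members such as EIF4E have wide intervals, and detection calls are not used here.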
